A study of Mus musculus with 16 samples.

Results

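The response of control-hairpin embryonic stem cells to retinoic acid (RA) was followed on 7 of the 16 arrays of the series, 4 from RA-treated and 3 from vehicle-treated cells, chosen by their titles. The cells were E14, a mouse embryonic stem cell line, and all 7 arrays came from cells that stably expressed a control short hairpin RNA (sh-Control) from a lentiviral vector. Both groups grew in serum-containing medium with leukocyte inhibitory factor, as the labels name it, and received vehicle ethanol or 20 nM RA for 2 days. The RA isomer, the sequence of the control hairpin, and whether the line was a clone or a pool are not given in the sources used here. The submitters mention duplicates without saying which RA arrays they are, so the p-values rest on a spread between arrays that may in part be technical. The other 9 arrays, from cells with a hairpin against Sirt1, the gene of a deacetylase, entered the estimate of the spread and the filter on dim probes. Of their levels, only those of Sirt1 and, for the RA-treated ones, of some Y-linked genes are given.

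RA is made from vitamin A by retinol and retinal dehydrogenases, enters the nucleus with carrier proteins and binds receptors (RARs) that sit on DNA as heterodimers with RXRs. With ligand these receptors exchange corepressors for coactivators at paired half-sites, and among the genes they switch on are those that break RA down or carry it, so that the pathway limits itself. In stem cells RA is known for switching on Hox genes in the order of their place in the cluster, for inducing Stra8 and for loss of pluripotency.

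The 3 genes taken as markers of the response were Cyp26a1, the cytochrome P450 that breaks RA down, Rarb, the RA receptor beta, and Stra8, which germ cells need to enter meiosis. The promoters of Rarb and Cyp26a1 are shown because both held a receptor motif in the 250 bases before the gene start. The motif searched was a direct repeat of the half-site AGGTCA, its variant AGTTCA, its variant GGGTCA or its variant GGTTCA, in any combination, with 5, 2 or 1 bases between the half-sites, on both strands, and no other motif was searched. Sequences are from RefSeq promoter windows of the build GRCm38.p6, in lower case with the motif in capitals. The Rarb window lies at chr14:16575477-16575726 on the minus strand, and its motif, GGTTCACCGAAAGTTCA, starts 53 bases before the gene start and has 5 bases between the half-sites. The Cyp26a1 window lies at chr19:37697558-37697807 on the plus strand. Its motif reads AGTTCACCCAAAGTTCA on the opposite strand, starts 32 bases before the gene start and also has 5 bases between the half-sites.
Rarb: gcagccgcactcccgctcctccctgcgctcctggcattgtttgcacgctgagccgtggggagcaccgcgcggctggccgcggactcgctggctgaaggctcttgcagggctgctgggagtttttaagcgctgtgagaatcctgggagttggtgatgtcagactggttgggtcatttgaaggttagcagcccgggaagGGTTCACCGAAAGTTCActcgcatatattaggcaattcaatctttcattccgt
Cyp26a1: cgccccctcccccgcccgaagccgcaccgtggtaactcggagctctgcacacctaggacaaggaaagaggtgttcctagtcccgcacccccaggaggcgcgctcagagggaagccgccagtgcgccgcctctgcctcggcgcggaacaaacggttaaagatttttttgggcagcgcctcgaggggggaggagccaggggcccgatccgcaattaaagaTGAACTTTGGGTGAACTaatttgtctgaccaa

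A repeat with 5, 2 or 1 bases of spacing was in 193 of all 32851 promoter windows of 300 bases, which is 0.588%, and the spacing of 5 was in 32 of them (0.0974%). Of 100 retinoid, receptor, Hox, cofactor and marker genes, 68 had a window, and Rarb, Cyp26a1 and Bco1 (a carotenoid-cleaving oxygenase that did not pass the filter on the arrays) held a repeat. The windows of 31 genes held the spacing of 5, and 5 of these genes were measured. Rarb and Cyp26a1 rose under RA. Prss27, a serine protease, was lower by 0.57 log2 units (SE 0.19, adjusted p = 0.0266), a call that was lost without vehicle array 2 or 3 (adjusted p = 0.0663 and 0.0877), and without RA array 2 the difference was -0.35 (adjusted p = 0.0377). Blvrb and Hbb-y differed by -0.27 and -0.48 (adjusted p = 0.295 and 0.493). These matches describe the letters in these windows, and no match in the Stra8 window says only that the letters are not in it.

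Each array held 45018 spots, of which 43379 were not controls, and on the 7 arrays the share of probes well above background was 60.3 to 67.1%. Levels are given in log2 units relative to the 75th percentile of the array, which lay at an intensity of 684 to 949. Sirt1 was at 3.85, 3.53 and 3.60 in vehicle and at 3.48, 3.28, 3.36 and 3.34 under RA, and differed by -0.30 (SE 0.14, adjusted p = 0.105), beside 0.92 to 1.89 on the sh-SIRT1 arrays. RA arrays 2, 3 and 4 stood apart in 3 of 5 measured Y-linked genes. Ddx3y was at 1.60, 0.39 and 0.33 in vehicle and at 0.23 on RA array 1, but at -6.91, -8.01 and -8.12 on RA arrays 2, 3 and 4. Eif2s3y was at 0.98 to 1.79 in vehicle, at 1.98 on RA array 1 and at -2.89, -2.53 and -2.51 on the other RA arrays. Its fall of 2.81 (SE 0.84, adjusted p = 0.0136) was not called without vehicle array 1 (adjusted p = 0.0526). Uty was at -5.23 to -3.71 in vehicle, at -5.08 on RA array 1 and at -7.94 to -7.67 on the others. The remaining members did not follow this division: Zfy1 was at -3.84 to -3.38 under RA, within its vehicle range of -4.40 to -3.33, and Zfy2 was at -4.52, -3.79, -5.24 and -5.17 against -5.83 to -5.33, at least 1.75-fold higher (adjusted p = 0.0326), a call that was lost without RA array 1 or 2 or vehicle array 2 or 3 (adjusted p = 0.0633 to 0.108). On the RA-treated sh-SIRT1 arrays Ddx3y was at 0.41 to 0.94, Eif2s3y at 1.41 to 2.16 and Uty at -5.34 to -4.72. Why these genes were low on RA arrays 2 to 4 was not tested. On those arrays alone, a difference in the cells used cannot be told apart from the RA treatment. Counts for RA array 1 alone are therefore given for all genes and, after the lists, for the lists. Array precision is limited by the number of arrays.

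All 3 markers rose on every RA array. Cyp26a1 was at -6.52, -6.61 and -5.97 in vehicle, not well above background on any of these arrays, and at -0.67, -0.15, 1.72 and 1.54 under RA. RA arrays 3 and 4 were the high ones and the groups did not overlap. Its RA mean was at least 68.3-fold higher than the detection limit of the vehicle arrays (adjusted p = 1.88e-06). Stra8 was at -1.25, -0.50 and -0.55 in vehicle and at 6.68, 6.52, 8.03 and 7.98 under RA, again highest on RA arrays 3 and 4, with no overlap. The means were -0.77 ± 0.42 (SD, n = 3) and 7.30 ± 0.82 (n = 4), a difference of 8.07 log2 units (SE 0.60, adjusted p = 2.31e-07). Rarb was at -5.80, -5.39 and -4.93 in vehicle, above background on 1 of 3 arrays, and at -1.27, -0.60, -0.42 and -0.45 under RA. Here RA arrays 2 to 4 lay close together and RA array 1 was lowest, and the rise was 4.69 (SE 0.37, adjusted p = 3.61e-07). The probes lay at chr19:37401759-37401818 for Cyp26a1, chr6:34870433-34870492 for Stra8 and chr14:14246146-14246205 for Rarb in the build mm7 of the file headers. The exon or other part of the gene they match was not analysed here, and these positions belong to another build than the promoter windows. The plot of levels by array shows these markers beside 11 other genes.

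**Figure D1:**
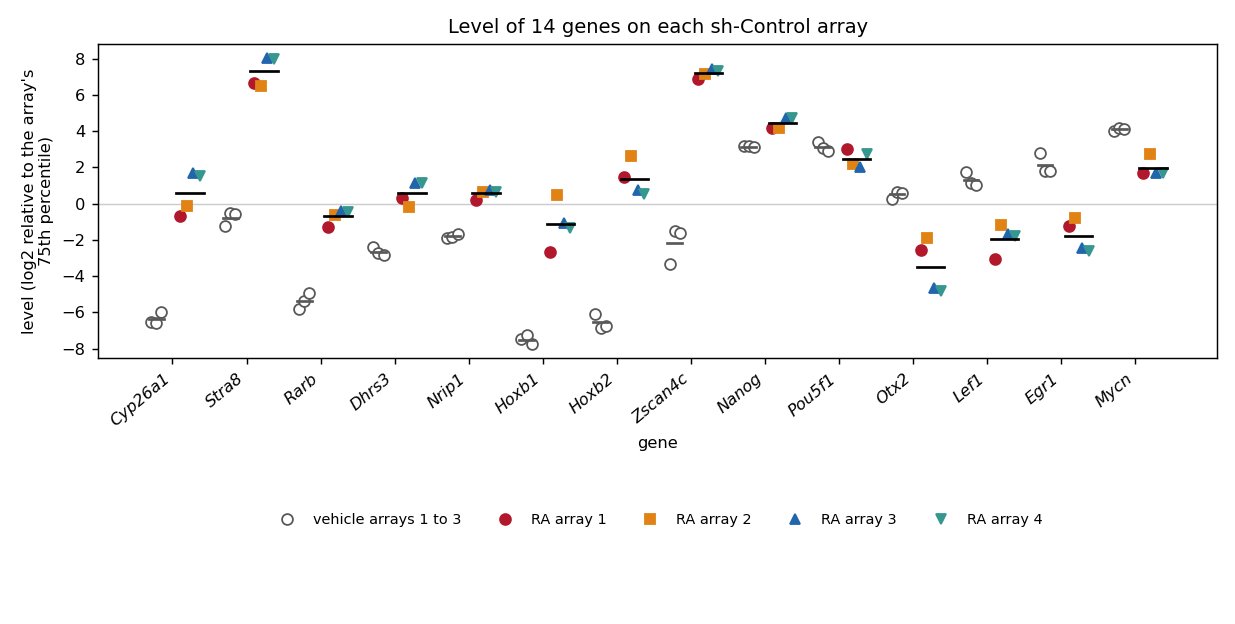
Level of 14 genes (x axis) on each sh-Control array, in log2 units relative to the 75th percentile of the array (y axis). Open circles are the 3 vehicle arrays, coloured symbols the 4 RA arrays, and short lines the group means. Cyp26a1, Stra8 and Rarb sit far above vehicle on all 4 RA arrays, Otx2, Lef1, Egr1 and Mycn sit below it on all 4.

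Of 18281 genes tested with limma (Benjamini-Hochberg adjusted p under 0.05, all 16 arrays in the fit), 8561 changed (46.8%), of which 3594 rose (19.7% of the genes tested) and 4967 fell (27.2%). The median difference over all genes was -0.14 log2 units, and -0.08 with quantile normalization, so how common a small fall is depends on the scaling. Calls of at least 1 log2 unit were 2882 (15.8%), with 1964 rises (10.7%) and 918 falls (5.02%). Scaling each array to its median in place of its 75th percentile moved the median of all genes to -0.29 and the share of rises among calls from 42 to 29.3%. With RA array 1 alone against vehicle, 2957 genes rose and 4127 fell. Gene lists below are described by counts and medians beside these shares, and no list was tested. A member that was dim in vehicle entered a list's count only where another group, usually RA, was bright, so it had to differ. In whole cultures, a smaller share of cells expressing a gene and less RNA of it per cell cannot be told apart.

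Enzymes and carriers of RA rose more often than they fell. Of 29 genes on the list 24 were measured, of which 12 rose and 4 fell, beside 19.7% and 27.2% of all genes, and the median was 0.69 (0.55 with dim members at their bound). Dhrs3, which turns retinal back to retinol, was at -2.39, -2.75 and -2.81 in vehicle and at 0.32, -0.17, 1.14 and 1.13 under RA. It rose by 3.26 (SE 0.50, adjusted p = 1.36e-04), and RA arrays 3 and 4 were again the high ones. Enzymes of RA synthesis rose as well: Aldh1a3 by 2.07 (SE 0.47, adjusted p = 0.0026) and Aldh1a2 by 1.63 (SE 0.26, adjusted p = 1.63e-04). Aldh1a3 differed among RA arrays, at -2.16, -1.75, -3.65 and -2.58, all above its vehicle range of -4.79 to -4.27. Cyp26b1, a second RA hydroxylase, rose by 1.75 (SE 0.43, adjusted p = 0.00417) and Rbp4, the retinol carrier of blood, by 1.96 (SE 0.27, adjusted p = 4.90e-05). Against this trend, Stra6, the membrane receptor for Rbp4, was lower on every RA array (-0.50, -0.57, 0.07 and 0.10 against 0.42 to 0.84) and fell by 0.90 (SE 0.18, adjusted p = 0.00105). Adh5, an alcohol dehydrogenase, fell by 0.68 (SE 0.11, adjusted p = 1.58e-04).

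Receptors and coregulators split, with 5 rises and 5 falls among 16 measured of 18, shares not far from those of all genes, and a median of -0.27. With scaling to the array median the falls were 9. Nrip1, a corepressor recruited by liganded receptors, was at -1.90, -1.85 and -1.68 in vehicle and at 0.18, 0.67, 0.75 and 0.67 under RA. It rose by 2.38 (SE 0.16, adjusted p = 7.12e-08), with every RA array above vehicle and array 1 the low one. Rxra, the partner of RARs, was at 2.69, 2.24, 2.29 and 2.21 against 1.01 to 1.57, a rise of 1.13 (SE 0.16, adjusted p = 5.77e-05). Nr6a1, the orphan receptor GCNF, rose by 0.78 (SE 0.17, adjusted p = 0.00225). Its level was 0.76 to 0.85 in vehicle and 1.22, 1.94, 1.62 and 1.59 under RA. Other receptors were lower. Rara was at -4.78, -4.77, -4.47 and -4.37 against -3.98 to -3.57 and fell by 0.84 (SE 0.17, adjusted p = 9.83e-04). Rxrg fell by 0.97 (SE 0.23, adjusted p = 0.0034) and Rxrb by 0.52 (SE 0.11, adjusted p = 0.00122). Rarg differed by -0.42 (SE 0.20, adjusted p = 0.104), with overlapping groups. Nr2f6, an orphan receptor, fell by 0.86 (SE 0.16, adjusted p = 7.41e-04).

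In the HoxA and HoxB clusters 17 of 19 measured genes rose and none passed as lower. The list holds 21 genes, of which only 7 were well above background on all vehicle arrays. Hoxb1 was at -2.67, 0.48, -1.06 and -1.34 under RA, highest on array 2 and lowest on array 1, and at least 20.2-fold higher than vehicle (adjusted p = 1.08e-06). Hoxb2 followed the same order for array 2, at 1.47, 2.65, 0.74 and 0.56, and was at least 115-fold higher (adjusted p = 8.59e-09). Hoxb5 lay at -2.30, -0.72, -2.28 and -2.62 and Hoxb6 at -1.03, 0.10, -2.11 and -2.41, at least 11.4-fold and 17.4-fold higher (adjusted p = 5.00e-07 and 3.71e-06). Hoxa4 was even across the RA arrays, from -2.52 to -2.30, and at least 8.38-fold higher (adjusted p = 3.21e-06). All of these Hoxb genes were at their highest on RA array 2. Hoxa3 and Hoxa6 differed by -0.04 and -0.15 (adjusted p = 0.804 and 0.754). A second Hoxa3 probe was higher under RA, and the mean over the Hoxa3 probes was higher by over 1 log2 unit. The probes thus disagreed, and Hoxa3 cannot be called unchanged. With the mean over the probes of each gene, 18 genes of the list rose.

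Of the HoxC and HoxD genes, 17 were on the array, 11 were measured and 6 rose, a count that was 3 without RA array 1, without vehicle array 2 or without vehicle array 3. Hoxc9 divided the RA arrays, at -0.17 and 0.45 on arrays 1 and 2 and -3.12 and -3.61 on arrays 3 and 4, against -7.60 to -6.95 in vehicle. It was at least 14.7-fold higher (adjusted p = 4.17e-05). Hoxd13 was at -2.95 to -3.68 on the RA arrays and at least 4.34-fold higher (adjusted p = 3.73e-06). Among cofactors and Cdx genes, which act with or upstream of Hox genes, 9 of 12 measured rose and Pknox1 fell by 0.45 (SE 0.09, adjusted p = 8.06e-04). Cdx1 was at -0.68, -1.74, -0.83 and -0.87 against -4.18 to -3.81, a rise of 3.02 (SE 0.28, adjusted p = 1.81e-06). Meis1, a Hox cofactor, was at least 3.45-fold higher (adjusted p = 3.12e-04). Meis2 and Tshz1 were at their highest on RA array 2, at 2.44 and 0.86, and at their lowest on array 4, at -0.24 and -1.43.

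Transcripts of the 2-cell-like state, a rare condition of cultured stem cells named for the early embryo, showed the largest median of the lists, with 11 of 12 measured genes higher. The list holds 20 genes, and only 5 were well above background on all vehicle arrays. The median was 6.20 with members that no vehicle array measured at their bound, and 7.24 with their measured signals. Zscan4c, a zinc finger gene linked to telomere upkeep, was at -3.35, -1.51 and -1.64 in vehicle and at 6.88, 7.16, 7.42 and 7.33 under RA. The RA arrays lay close together while vehicle array 1 was the low one, and the rise was 9.37 (SE 0.52, adjusted p = 1.85e-08). Usp17la, a deubiquitinase gene, was still more even, at 4.23, 4.38, 4.27 and 4.24 under RA. Zfp352, at 0.37, 1.15, 0.25 and 0.15, was at least 60.3-fold higher (adjusted p = 1.80e-06). Zscan4, Tcstv, Usp17l and Pramel genes have near-identical copies, so a probe may report several of them. Per-array medians of the list, from measured signals, were 7.44, 7.49, 7.12 and 7.05.

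Genes of meiosis and the germ line rose in part. Of 15 measured meiosis genes 7 rose and 2 fell, and of 16 measured germ line genes 10 rose and none passed as lower (1 fell without vehicle array 1). Sycp1, a component of the synaptonemal complex, was at -3.54 to -3.26 in vehicle and at -0.91, -1.75, -1.50 and -1.52 under RA, a rise of 1.98 (SE 0.18, adjusted p = 1.56e-06). Rec8, the meiotic cohesin, was at 3.12, 3.57, 4.17 and 4.10 against 2.11 to 2.71, higher on arrays 3 and 4 as Stra8 was, and rose by 1.24 (SE 0.29, adjusted p = 0.00297). Tex12, another complex component, was at least 3.85-fold higher (adjusted p = 7.66e-05). Syce2 fell by 1.05 (SE 0.32, adjusted p = 0.0144) and Stag3 by 0.57 (SE 0.17, adjusted p = 0.0135). Neither fall passed when arrays 3 and 4 of RA, and vehicle arrays 2 and 3, which differed little, were averaged (adjusted p = 0.0988 and 0.0716). Dmc1, the meiotic recombinase, differed by 0.73 (adjusted p = 0.134). Dazl, an RNA-binding protein of germ cells, was at -2.60, -2.11 and -2.25 in vehicle and at 0.47, 0.32, 0.59 and 0.60 under RA. It rose by 2.81 (SE 0.17, adjusted p = 2.78e-08), evenly over the RA arrays. Mael, which acts in transposon silencing, rose by 1.53 (SE 0.20, adjusted p = 3.89e-05).

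Core pluripotency genes were mostly lower, with 14 of 17 falling, 2 rising and a median of -0.67. With quantile normalization 9 fell. The 2 that rose were Nanog and Dppa2. Nanog was at 3.17, 3.17 and 3.13 in vehicle and at 4.17, 4.17, 4.75 and 4.73 under RA, a rise of 1.30 (SE 0.15, adjusted p = 1.55e-05). Dppa2 was at 3.66, 3.85, 4.56 and 4.52 against 2.86 to 2.97, a rise of 1.23 (SE 0.19, adjusted p = 1.71e-04). Both were higher on arrays 3 and 4 than on 1 and 2. Foxd3, a forkhead repressor, showed the reverse order, at -0.23, -1.08, -2.01 and -1.94 against 0.43 to 0.94, and fell by 1.93 (SE 0.38, adjusted p = 9.69e-04). Zscan10, a zinc finger partner of the core factors, was at 1.83 to 2.22 against 3.24 to 3.34 and fell by 1.22 (SE 0.11, adjusted p = 1.73e-06). Pou5f1 was at 3.01, 2.19, 2.04 and 2.73 against 2.93 to 3.43, with overlap, and its fall of 0.65 (SE 0.22, adjusted p = 0.0266) was not called without RA array 2, RA array 3 or vehicle array 1 (adjusted p = 0.0703, 0.0765 and 0.118). Sox2 was at 3.68, 3.59, 3.51 and 3.52 against 4.06 to 4.18. Its fall of 0.54 (SE 0.19, adjusted p = 0.0281) was not called without RA array 3 or 4 or any 1 vehicle array (adjusted p = 0.0537 to 0.0805).

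Naive pluripotency genes, which mark the state before implantation, moved both ways, with 2 of 15 measured rising and 5 falling, shares not far from those of all genes. Tbx3, a T-box factor, was at 6.33, 5.16, 5.85 and 5.84 against 4.56 to 4.79, a rise of 1.14 (SE 0.24, adjusted p = 0.00138). Fbxo15 was at 5.58, 5.84, 6.19 and 6.15 against 4.41 to 4.88, a rise of 1.24 (SE 0.24, adjusted p = 9.25e-04). Lifr, the receptor subunit for the cytokine in the medium, was at -0.71, -2.36, -1.20 and -1.12 against -0.12 to 0.08 and fell by 1.30 (SE 0.26, adjusted p = 0.0012). Stat3, which carries that signal, fell by 0.64 (SE 0.11, adjusted p = 2.64e-04). Nr5a2 fell by 1.13 (SE 0.18, adjusted p = 1.88e-04) and Esrrb by 0.63 (SE 0.13, adjusted p = 0.00126), both nuclear receptors of the naive network. Klf4 and Zfp42 differed by 0.01 and -0.28 (adjusted p = 0.98 and 0.168), with overlapping groups.

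Of 10 measured genes of the post-implantation epiblast, 6 fell and none passed as higher. Otx2, a homeobox factor of that stage, was at 0.28, 0.65 and 0.59 in vehicle and at -2.56, -1.87, -4.67 and -4.85 under RA, lowest on arrays 3 and 4. It fell by 4.00 (SE 0.85, adjusted p = 0.0017). Lef1, a DNA-binding partner of beta-catenin, was at -3.05, -1.20, -1.70 and -1.76 against 1.03 to 1.75 and fell by 3.23 (SE 0.35, adjusted p = 6.86e-06). Pou3f1, a POU factor of early neural cells, fell by 1.09 (SE 0.21, adjusted p = 9.09e-04). Fgf5, the classic gene of the stage, was at -2.39 and -0.70 on RA arrays 1 and 2 and at -3.72 and -3.78 on arrays 3 and 4, against -4.02 to -3.22. It lay above vehicle on arrays 1 and 2 and within the vehicle range on arrays 3 and 4, and did not pass (0.87, adjusted p = 0.298).

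Most primitive endoderm genes rose, by amounts that differed between RA arrays. Of 11 genes, all measured, 7 rose and none passed as lower (1 fell without RA array 1 or with scaling to the array median), with a median of 3.03 (2.46 with dim members at their bound) and per-array medians of 4.88, 2.80, 1.62 and 1.74. Gata6, a driver of this lineage, was at -3.05, -3.03 and -3.14 in vehicle and at 3.03, 0.08, 0.40 and 0.49 under RA. Array 1 stood apart, and the rise was 4.07 (SE 0.52, adjusted p = 3.13e-05). 1 of 2 other Gata6 probes gave the same sign. Sox17 was at 1.62, -1.35, -2.52 and -2.22 against -4.25 to -4.06, a rise of 3.03 (SE 0.72, adjusted p = 0.00367). Sox7 was at 1.04 on array 1 and -2.47 to -1.86 on the others, and its rise of 2.40 (SE 0.62, adjusted p = 0.00591) was 1.58 without array 1. Pdgfra, the growth factor receptor of the lineage, was at 0.02 on array 1 and -2.78 to -2.69 on the others, and was at least 10.9-fold higher over the group (adjusted p = 7.92e-05). Foxa2 had another order, at 1.39, 1.80, -0.12 and -0.40, and rose by 4.72 (SE 0.45, adjusted p = 1.98e-06). Gata4 was at -2.79 on array 1 and -5.52 to -5.05 on the others, within or below its vehicle range of -5.50 to -4.71 except on array 1, and did not pass (0.41, adjusted p = 0.568).

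Basement membrane genes of parietal endoderm, which secretes a thick matrix, divided RA arrays 1 and 2 from arrays 3 and 4. Per-array medians were 2.71, 2.44, 0.02 and -0.21, and 6 of 14 measured genes rose. With RA array 1 alone 11 rose, and without it 6 rose and 2 fell. Col4a1, a collagen IV chain, was at -3.78 to -3.23 in vehicle and at 3.24, 0.95, -0.86 and -0.69 under RA, a rise of 4.25 (SE 0.76, adjusted p = 4.77e-04). Serpinh1, the collagen chaperone, was at 6.06, 5.32, 4.17 and 4.06 against 2.46 to 2.54, a rise of 2.39 (SE 0.38, adjusted p = 1.73e-04). P4ha2, a collagen prolyl hydroxylase, was at 4.85 on array 1 and 3.73 to 3.75 on the others, a rise of 3.17 (SE 0.32, adjusted p = 3.91e-06). Lama1, a laminin chain, was at 2.99, 0.23, -0.66 and -0.62 against -0.52 to -0.43. Arrays 3 and 4 thus lay below vehicle and arrays 1 and 2 above it, and Lama1 did not pass (0.95, adjusted p = 0.226). Of 13 measured genes of visceral endoderm and yolk sac, 4 rose and 2 fell (4 fell without RA array 4, with quantile normalization or with scaling to the array median). Over all genes 19.7% rose and 27.2% fell. Afp, the fetal serum protein, was at -2.91, -3.57, -4.40 and -4.56 and at least 3.09-fold higher (adjusted p = 0.0029). Cited1, a transcriptional coregulator, was at 1.30, 1.12, 0.05 and 0.06 against -1.92 to -1.55, a rise of 2.40 (SE 0.36, adjusted p = 1.07e-04). Apoe was at 6.62 on array 1, within its vehicle range of 6.57 to 7.12, and at 5.08 to 5.12 on the others, a fall of 1.44 (SE 0.36, adjusted p = 0.00492).

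**Figure D2:**
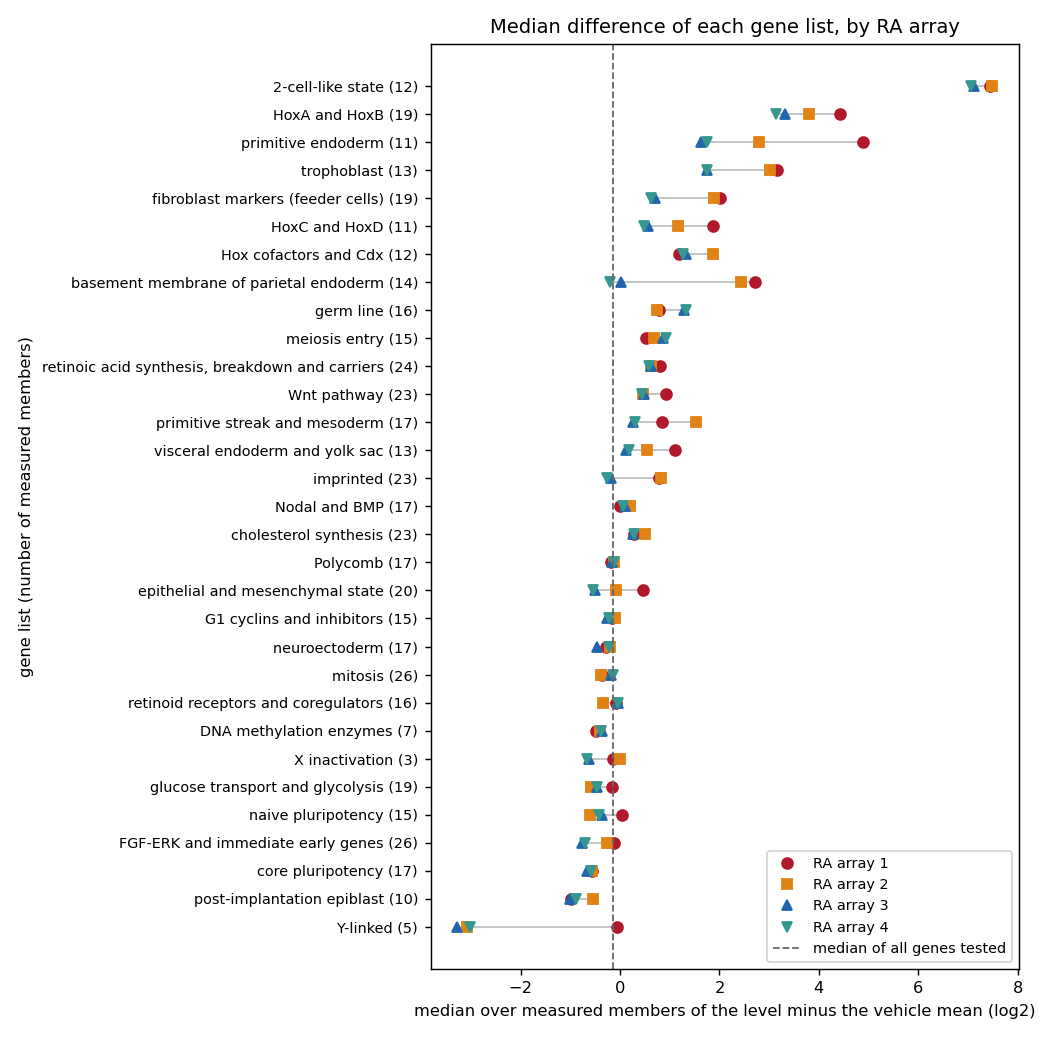
Median over the measured members of each gene list (y axis, number of measured members in parentheses) of the level minus the vehicle mean, in log2 units (x axis), for each of the 4 RA arrays. The dashed line is the median of all genes, -0.14. The 4 arrays coincide for the 2-cell-like list (7.05 to 7.49) and for core pluripotency (-0.66 to -0.57), and spread for primitive endoderm (1.62 to 4.88), basement membrane (-0.21 to 2.71) and Y-linked genes.

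Trophoblast genes rose in 9 of 13 measured cases, with per-array medians of 3.16, 3.02, 1.75 and 1.74. Gata3, a trophoblast regulator, was at -1.84, -0.00, -1.78 and -2.11, highest on array 2, and at least 16.6-fold higher than vehicle (adjusted p = 6.58e-07). Plac1, a placental gene, was at -1.85, -3.12, -3.83 and -3.76 and at least 5.09-fold higher (adjusted p = 1.75e-05). The keratins Krt8 and Krt18 moved as a pair. Krt8 was at 5.17, 5.23, 3.10 and 2.96 against 1.47 to 1.87, a rise of 2.50 (SE 0.48, adjusted p = 8.49e-04), and Krt18 at 5.68, 6.31, 4.01 and 3.86 against 2.53 on each vehicle array, a rise of 2.44 (SE 0.51, adjusted p = 0.00146). Gata2 was less variable, at -0.38, -0.85, -0.03 and -0.18 against -2.77 to -1.97, and rose by 2.04 (SE 0.22, adjusted p = 5.27e-06).

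Of 17 measured genes of the primitive streak and mesoderm, 7 rose and 2 fell, or 1 without RA array 3 or 4 or vehicle array 2 or 3. Eomes, a T-box factor of the streak, was even, at -1.38, -1.39, -1.32 and -1.35 against -4.03 to -3.64, and rose by 2.47 (SE 0.16, adjusted p = 5.33e-08). Tbx1 rose by 2.52 (SE 0.37, adjusted p = 8.99e-05), with -1.97 and -1.89 on arrays 1 and 2 and -2.97 and -3.05 on arrays 3 and 4. Evx1, a posterior streak gene, fell by 1.20 (SE 0.29, adjusted p = 0.00385). T (brachyury) was at -4.52, -5.11, -5.10 and -5.07 against -6.09, -5.54 and -4.48 and differed by 0.42 (adjusted p = 0.313), while without vehicle array 3 it passed (0.87, adjusted p = 0.0305). In the neuroectoderm list 2 of 17 measured genes rose (4 without RA array 1, and 1 without vehicle array 2 or 3) and 3 fell, beside 6 with scaling to the array median. Over all genes 19.7% rose and 27.2% fell, so neither count of the neuroectoderm list stood above these shares in the main fit. Gbx2, a hindbrain and naive-state factor, was at 1.16, 1.43, 1.31 and 1.21 against 2.36 to 3.52 and fell by 1.51 (SE 0.29, adjusted p = 9.09e-04). Zic1, a zinc finger gene of neural plate and mesoderm, was at -3.37, -2.03, -4.59 and -4.79 against -6.90 to -4.96, a rise of 2.37 (SE 0.60, adjusted p = 0.00547). Pax6 was at -6.82 on array 1, below vehicle (-4.16 to -2.99), and at -2.31, -2.16 and -2.30 on the others, above it. The group difference was -0.02 (adjusted p = 0.987), and without array 1 it was 1.12 (adjusted p = 0.0186).

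Among 23 measured genes of the Wnt pathway, which signals through beta-catenin and Lef1, 13 rose and 3 fell. The rises were 6 with normexp background correction, 8 with the 7 arrays alone and 5 with close arrays averaged in a fit of the sh-Control arrays. The falls were 6 without RA array 2, 5 with scaling to the array median and 1 without vehicle array 3 or with the 7 arrays alone. Wnt3, a ligand of the early streak, was at -2.51, -1.72, -1.79 and -1.78 against -4.28 to -3.76, a rise of 2.03 (SE 0.23, adjusted p = 1.14e-05). The ligands Wnt3a and Wnt4 rose by 1.85 (SE 0.42, adjusted p = 0.00249) and 2.10 (SE 0.49, adjusted p = 0.00304). Secreted or cytoplasmic inhibitors rose too. Dkk1 was at 1.38, 0.16, -0.66 and -0.53 against -4.33 to -3.87, a rise of 4.25 (SE 0.39, adjusted p = 1.46e-06). Nkd1, which acts on Dishevelled, was at -0.09, 0.01, -0.14 and -0.24 against -2.58 to -1.81, a rise of 1.96 (SE 0.17, adjusted p = 7.40e-07). The receptor gene Fzd5 fell by 1.13 (SE 0.22, adjusted p = 0.00102). Axin2 and Sp5, genes often used to read the pathway, did not pass. Axin2 differed by -0.59 (adjusted p = 0.0603), and passed without RA array 2 (-0.69, adjusted p = 0.0443) or vehicle array 2 (-0.77, adjusted p = 0.0346). Sp5 was at 1.83 on array 2, above its vehicle range of 0.30 to 0.37, and below that range on the others, down to -1.83 on array 4, and without array 2 the fall of 1.76 passed (adjusted p = 8.28e-04).

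Genes of FGF-ERK signalling and immediate early genes mostly fell where they changed, with 11 falls and 2 rises among 26 measured. Egr1, an immediate early zinc finger gene, was at 2.78, 1.79 and 1.82 in vehicle and at -1.23, -0.81, -2.47 and -2.62 under RA, a fall of 3.91 (SE 0.46, adjusted p = 1.59e-05). Mycn was at 1.68, 2.75, 1.67 and 1.68 against 4.02 to 4.17, with array 2 the high one, and fell by 2.16 (SE 0.26, adjusted p = 1.80e-05). Etv5, an ERK-responsive ETS factor, was at -0.41, -0.47, 0.34 and 0.36 against 1.16 to 1.48 and fell by 1.32 (SE 0.22, adjusted p = 3.04e-04). Myc fell by 0.75 (SE 0.18, adjusted p = 0.00374) and Junb by 1.13 (SE 0.31, adjusted p = 0.00763). Jun moved the other way, at -1.53, -0.65, -2.13 and -2.14 against -4.46 to -4.11, a rise of 2.63 (SE 0.31, adjusted p = 1.30e-05). The receptor Fgfr2 rose by 1.68 (SE 0.44, adjusted p = 0.00655). Vehicle array 1 was its low one at -4.37, against -2.05 and -2.18, and without it the rise was 0.93.

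Nodal and BMP genes changed in 7 of 17 measured cases, with 4 rises and 3 falls, near the shares of all genes (2 rises without vehicle array 1 or with scaling to the array median). Smad6, which inhibits BMP signalling, was at -2.51 and -1.95 on vehicle arrays 1 and 3 and missing on array 2, and at -0.40, 0.39, 0.54 and 0.52 under RA. It rose by 2.49 (SE 0.25, adjusted p = 5.55e-06). Acvr2a, an activin receptor, rose by 0.96 (SE 0.11, adjusted p = 1.09e-05), and Skil, a repressor of Smad proteins, fell by 0.94 (SE 0.15, adjusted p = 1.92e-04). Nodal itself was at 4.03, 3.56, 4.99 and 4.88 against 3.92 to 4.11, on both sides of vehicle (0.34, adjusted p = 0.412). Of 20 genes of the epithelial and mesenchymal state, 5 rose and 3 fell, beside 19.7% and 27.2% of all genes, and 6 fell without RA array 1. The list median was -0.18, beside -0.14 over all genes, so the members named next do not stand for the whole list. The repressors Snai1 and Snai2 rose by 1.78 (SE 0.28, adjusted p = 1.92e-04) and 1.23 (SE 0.14, adjusted p = 1.40e-05), and their relative Zeb2 by 2.41 (SE 0.34, adjusted p = 7.94e-05). Twist1 rose by 1.32 (SE 0.24, adjusted p = 4.94e-04). Epcam, an epithelial adhesion protein, was at 1.31, 0.97, 0.82 and 0.91 against 2.34 to 2.47 and fell by 1.40 (SE 0.20, adjusted p = 7.67e-05). Esrp1, an epithelial splicing factor, fell by 2.40 (SE 0.52, adjusted p = 0.00185). Cdh1, the epithelial cadherin, differed by -0.17 (adjusted p = 0.229).

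Markers of fibroblasts, which serve as feeder cells in some stem cell cultures, were followed beside these genes. The sample labels do not name feeder cells. Of 23 listed, 19 were measured, 9 rose and none passed as lower (1 fell without RA array 2). Summed over the list, the level in units of the 75th percentile was 24.7 to 29.8 on the vehicle arrays and 43.8, 81.1, 25 and 24 on RA arrays 1 to 4. Col1a1 was at 0.57, 1.74, -0.71 and -0.68 against -3.45 to -2.90, a rise of 3.33 (SE 0.54, adjusted p = 2.23e-04). Pdgfrb was at 0.29 to 0.79 against -3.02 to -1.45 and rose by 2.57 (SE 0.33, adjusted p = 3.38e-05). Col5a1 rose by 1.59 (SE 0.16, adjusted p = 3.25e-06) and Fbln1 by 0.74 (SE 0.10, adjusted p = 4.71e-05). Of the defining markers, Dcn was well above background on 2 RA arrays, at -3.51 and -0.92 on arrays 1 and 2 against -6.27 and -7.53 on arrays 3 and 4 and -7.43 to -6.58 in vehicle. Prrx1 was above background on 1 RA array and on no vehicle array, and Col6a1 on 2 RA arrays and on no vehicle array. The part of such cells in the collagen, basement membrane and mesenchymal values on arrays 1 and 2 was not tested.

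Imprinted genes, expressed from 1 parental copy, changed in 15 of 23 measured cases, 7 up and 8 down, beside 19.7% and 27.2% of all genes. Igf2, the fetal growth factor, was at -2.38, -0.96 and -1.01 in vehicle and at 4.82, 4.62, 1.38 and 1.18 under RA, a rise of 4.45 (SE 0.95, adjusted p = 0.00172). H19, its neighbour on the other allele, was at -0.56 and -1.46 on arrays 1 and 2 and at -4.37 and -4.40 on arrays 3 and 4, against -4.43 to -3.71, and did not pass (1.48, adjusted p = 0.275). Mest was at least 1.9-fold higher (adjusted p = 0.00252). Phlda2, a placental growth restrictor beside Igf2, was even under RA, at 4.56, 4.52, 4.62 and 4.52 against 5.75 to 6.39, and fell by 1.43 (SE 0.13, adjusted p = 1.46e-06). The noncoding RNAs Mirg and Rian of the Dlk1 domain fell by 1.77 (SE 0.23, adjusted p = 4.01e-05) and 1.66 (SE 0.28, adjusted p = 2.62e-04). Dlk1 itself was at 1.62, 1.28, 1.27 and 1.14 against -1.53 to -0.89, a rise of 2.58 (SE 0.50, adjusted p = 8.73e-04). Nnat followed Ddx3y across arrays, at -0.93 on array 1, above its vehicle range of -2.18 to -1.27, and at -6.51, -6.81 and -6.93 on arrays 2 to 4. Its fall of 3.46 (SE 1.05, adjusted p = 0.0154) was not called without vehicle array 1 (adjusted p = 0.0575). The call was also lost with the 7 arrays alone (adjusted p = 0.106) and with close pairs averaged (adjusted p = 0.0907). Nnat was well above background on only 1 RA array, and with normexp background correction it differed by -1.10 (adjusted p = 0.179). Tsix, the antisense RNA of Xist, was lower on all RA arrays, at -3.02 to -2.01 against -1.51 to -1.10, lowest on arrays 1 and 2, a fall of 1.18 (SE 0.29, adjusted p = 0.00445). Xist differed by 0.58 (adjusted p = 0.468).

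In the Polycomb list, whose complexes mark and compact silent genes, 3 of 17 genes rose and 6 fell, near the 19.7% and 27.2% of all genes. Of the ubiquitin-ligase complex, Cbx8 rose by 1.98 (SE 0.28, adjusted p = 7.49e-05) and Bmi1 by 1.92 (SE 0.16, adjusted p = 6.08e-07). Cbx7, the main subunit of that kind in stem cells, fell by 0.69 (SE 0.15, adjusted p = 0.00161). Eed, of the methyltransferase complex, was at 3.57, 3.45, 3.40 and 3.31 against 4.25 to 4.82 and fell by 1.02 (SE 0.14, adjusted p = 5.38e-05), while its catalytic subunit Ezh2 differed by -0.24 (adjusted p = 0.109). Of 7 measured enzymes of DNA methylation, 4 fell and none passed as higher. Dnmt3b was at 2.72, 2.37, 2.08 and 2.06 against 3.69 to 3.76 and fell by 1.42 (SE 0.17, adjusted p = 1.84e-05), and Dnmt1 fell by 0.43 (SE 0.11, adjusted p = 0.004). Dnmt3l, their cofactor, was at 5.38, 4.99, 3.60 and 3.50 against 5.71 to 6.10. Its fall of 1.49 (SE 0.45, adjusted p = 0.0147) was not called without vehicle array 1 (adjusted p = 0.0547).

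Of 15 genes of the G1 phase 5 fell and 2 rose, near the 27.2% and 19.7% of all genes. Ccnd1, cyclin D1, was at -0.99, 0.52, -0.43 and -0.50 against 1.51 to 1.62 and fell by 1.91 (SE 0.26, adjusted p = 4.82e-05). Its partners Cdk6 and Cdk4 fell by 1.30 (SE 0.21, adjusted p = 2.36e-04) and 0.70 (SE 0.10, adjusted p = 8.75e-05), and Ccne1, cyclin E1, fell by 0.85 (SE 0.09, adjusted p = 7.06e-06). Cdkn2a, an inhibitor of these kinases, rose by 1.28 (SE 0.32, adjusted p = 0.00501). Of 26 mitosis genes 11 fell, Cenpf the most (it fell by 0.49), a count of 2 with quantile normalization and 19 with scaling to the array median. Top2a, the mitotic topoisomerase, fell by 0.45 (SE 0.12, adjusted p = 0.00755). Both glucose transporters of the list rose, Slc2a3 by 1.20 (SE 0.24, adjusted p = 0.00123) and Slc2a1 by 0.92 (SE 0.14, adjusted p = 1.24e-04). Slc2a3 was at 7.60, 6.95, 6.63 and 6.66 against 5.67 to 5.81. Among the 19 genes of that list 10 fell, a count of 3 with quantile normalization and 4 with close arrays averaged. Hk2, a hexokinase, fell by 0.70 (SE 0.12, adjusted p = 3.00e-04) and Eno1, an enolase, by 0.66 (SE 0.10, adjusted p = 1.12e-04). Of 23 genes of cholesterol synthesis 11 rose and 1 fell, with 7 rises without vehicle array 1.

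With RA array 1 alone against vehicle, the counts of several lists moved by over 1.5 times. Falls were 1 in place of 10 for glucose transport and glycolysis, 0 in place of 3 for Y-linked genes, and 0 in place of 2 for both meiosis and visceral endoderm. They were 9 in place of 14 for core pluripotency, 7 in place of 11 for FGF-ERK signalling, 3 in place of 6 for Polycomb, 2 in place of 4 for DNA methylation, 1 in place of 2 for streak and mesoderm, and 0 in place of 1 for cholesterol synthesis. Mitosis genes moved the other way, with 17 falls in place of 11, and 1 germ line gene fell. Rises were 11 in place of 6 for basement membrane and 4 in place of 2 for FGF-ERK signalling. They were 3 in place of 5 for retinoid receptors and 1 in place of 2 for both neuroectoderm and G1 genes. In the remaining lists, among them the HoxA and HoxB genes (17 rises) and the 2-cell-like state (11 rises), neither count moved that far.

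The 10 largest rises and falls among genes with a symbol and no overlap of groups held both members of these lists and genes outside them. Of the genes not yet given, Usp17lb, Pramel37, Tcstv1 and Tcstv3 belong to the list of the 2-cell-like state. Grhl2 belongs to that of the post-implantation epiblast. Gm428 was at -5.61, -3.94 and -3.79 in vehicle and at 5.25, 5.27, 4.88 and 4.78 under RA, a rise of 9.49 (SE 0.96, adjusted p = 3.77e-06). Gm11487 was at least 141-fold and Pramel39 at least 214-fold higher (adjusted p = 6.07e-08 and 6.23e-08). Usp17lb was at least 89.8-fold higher (adjusted p = 5.53e-09), and Pramel37, Tcstv1 and Tcstv3 rose by 8.80, 8.55 and 8.32 (SE 0.66, 0.57 and 0.53, adjusted p = 2.42e-07, 7.95e-08 and 6.26e-08). With Zscan4c, Usp17la and Stra8 these were the 10 rises. Among falls, Aass, the first enzyme of lysine breakdown, was at 3.72, 3.10 and 3.05 in vehicle and at -0.87, -0.41, -0.75 and -0.76 under RA, a fall of 3.99 (SE 0.17, adjusted p = 3.65e-09). Kcnh8, a potassium channel gene, and 9430069I07Rik were not well above background on any RA array and at least 7.13-fold and 6.54-fold lower (adjusted p = 1.28e-08 and 6.78e-08). These bounds hold for the main processing only. With normexp background correction the differences were -1.05 and -0.87, and neither passed (adjusted p = 0.185 and 0.293). Enox1 was at -1.27, -0.65, -0.34 and -0.35 against 2.97 to 3.45 and fell by 3.81 (SE 0.24, adjusted p = 4.39e-08). Nkx6-3, a homeobox gene, was at -3.43, -4.45, -3.28 and -3.32 against -0.16 to 0.96 and fell by 3.83 (SE 0.41, adjusted p = 5.61e-06). Ddx58, the RNA sensor RIG-I, fell by 3.85 (SE 0.32, adjusted p = 5.56e-07), and Grhl2, an epithelial factor, by 3.82 (SE 0.38, adjusted p = 3.21e-06). Otx2, Egr1 and Ddx3y were the others. Ddx3y fell by 6.48 (SE 1.42, adjusted p = 0.00212), but was well above background on only 1 RA array. The size of its fall thus rests on signals near background, and with normexp background correction the difference was -3.08. On RA array 1 alone Ddx3y differed by -0.54.

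The RA arrays differed from each other more than the vehicle arrays did, except for 1 pair. The SD over genes of the log2 difference was 0.633 between RA arrays 1 and 2, 0.736 between 1 and 3, 0.735 between 1 and 4, 0.649 between 2 and 3 and 0.660 between 2 and 4. Between RA arrays 3 and 4 it was 0.214, and between vehicle arrays it was 0.531, 0.556 and 0.321 for 1 and 2, 1 and 3, and 2 and 3. RA arrays 3 and 4 lay on different slides (slides 1 and 2). Over 131 bright probes with 10 spots each, their median absolute log2 difference was 0.042, against 0.015 for spot noise alone, and between the other RA pairs it was 0.289 to 0.342. Vehicle arrays 2 and 3 were alike in this (0.047 against 0.017). Spot noise leaves out labelling and hybridization, so these values do not show whether either pair came from separate cultures. The arrays were counted as the titles give them. With each pair averaged, and sh-SIRT1 vehicle arrays 2 and 3 likewise, 2884 genes rose and 3641 fell. The sh-SIRT1 RA arrays still entered that fit as separate samples. With the pairs averaged and only the sh-Control arrays in the fit, 1241 rose and 617 fell. Array 1 differed from array 3 by at least 1 log2 unit in 2465 genes (13.5%), and arrays 3 and 4 did so in 120 (0.656%). The median over genes of chromosome 8 was -0.19 on array 1, beside 0.06, 0.03 and 0.01 on arrays 2 to 4.

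**Figure D3:**
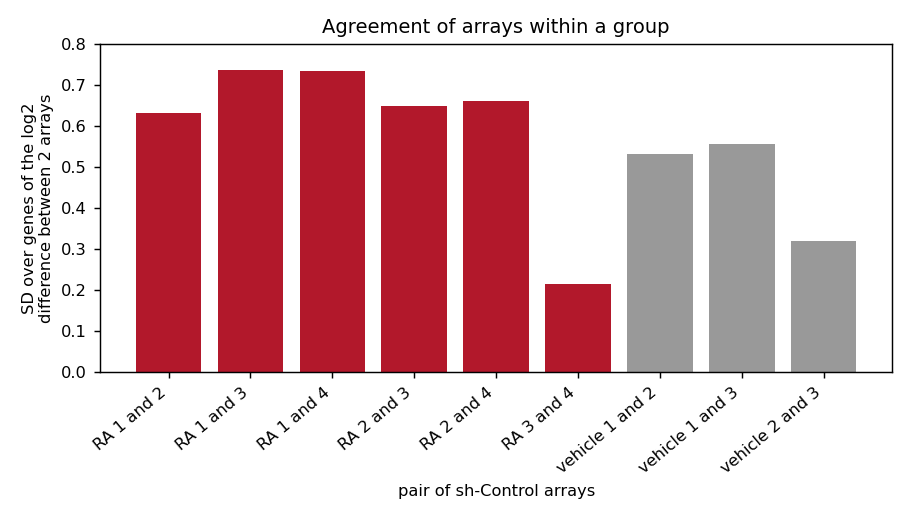
SD over 18281 genes of the log2 difference between 2 arrays of the same group (y axis, from 0) for each pair of RA arrays (red bars) and of vehicle arrays (grey bars). RA arrays 3 and 4 (0.214) were closest, and the other RA pairs (0.633 to 0.736) lay above every vehicle pair (0.321 to 0.556).

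Large calls were followed on the single RA arrays, the same arrays on which they were made. Of the 1964 rises of at least 1 log2 unit, 1276 reached 1 log2 unit above the vehicle mean on all 4 arrays, and of the 918 falls 409 did so below it. Taken singly, the arrays reached that size in 83.8 to 89.4% of these rises and in 75.8 to 85.8% of these falls. The groups of arrays did not overlap in 1858 of the 1964 rises and 850 of the 918 falls. Over all genes, with or without a call, RA lay above vehicle with no overlap in 19.3% and below it in 28.4%.

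The SD over the 4 RA arrays was at least 1 log2 unit in 655 genes, against 328 over the vehicle arrays. In 306 of the 655, array 1 was farthest from the median, in 277 array 2, in 28 array 3 and in 44 array 4. RA arrays 3 and 4 differed little from each other, which draws the median toward them. These counts therefore cannot show which arrays were the deviant ones. Among the 15 named genes with the largest SD, Srgn, Aqp8, Cubn and Lgals2 were highest on array 1 and next on array 2. Srgn, a proteoglycan of parietal endoderm, was at 5.39 on array 1, 1.90 on array 2 and -0.78 on array 4, with array 3 just below that, against -4.35 to -2.80 in vehicle, a rise of 4.95 (SE 1.20, adjusted p = 0.00413). Aqp8, a water channel gene, was at 3.94, 0.09, -2.39 and -2.18 against -3.53 to -3.08. Its rise of 3.15 (SE 1.14, adjusted p = 0.0357) was 1.79 without array 1 and was not called without array 2 or any 1 vehicle array (adjusted p = 0.0646 to 0.0927). Cubn, an uptake receptor of visceral endoderm, was at 3.53, 0.45, -2.47 and -2.25 against -2.99 to -1.94, and its difference of 2.26 (adjusted p = 0.0963) passed without array 3 or 4 (3.02 and 2.95, adjusted p = 0.029 and 0.0365). Lgals2, a galectin gene, was at -0.31, -4.18, -5.70 and -5.66 and did not pass (adjusted p = 0.113).

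A second set was high on arrays 1 and 2 and much lower on arrays 3 and 4. Tnc, the matrix protein tenascin C, was at -2.91 and -3.05 against -8.16 and -8.17, with vehicle at -7.84 to -7.51 (adjusted p = 0.192). Col3a1, a fibrillar collagen of the fibroblast list, was at -1.59 and -1.02 against -6.21 and -6.56, with vehicle at -6.88 to -5.21 (adjusted p = 0.137, and 0.0457 without array 4, with a difference of 3.37). Dcn, given above, did not pass (adjusted p = 0.0864), and passed without array 4 (adjusted p = 0.0129). Ccdc80, a matrix protein gene, was at 0.25 and 0.46 against -4.83 and -4.50, all above vehicle (-7.47 to -5.25), a rise of 4.28 (SE 1.32, adjusted p = 0.0165) that was not called without vehicle array 2 (3.77, adjusted p = 0.0635). Acta1, skeletal actin, was at -0.92 and 0.82 against -3.96 and -4.14, also all above vehicle (-5.03 to -4.58), and its difference of 2.73 (adjusted p = 0.0676) passed without array 3 or 4 (3.37 and 3.43, adjusted p = 0.0354 and 0.0301).

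Other genes divided the arrays in other ways. S100g, a calcium-binding protein gene, was at 0.59 on array 1 and -4.83 to -4.29 on the others. It was at least 4.46-fold higher than vehicle over the group (adjusted p = 0.00814), and the call was kept without array 1 (adjusted p = 0.00198). The call was lost with normexp background correction (1.63, adjusted p = 0.122) and with the 7 arrays alone (adjusted p = 0.0613). Cc2d2a, a cilium gene, was at -7.85 on array 1 and -2.12, -1.89 and -1.89 on the others, against -2.46 to -2.31. Its difference of -1.06 (adjusted p = 0.422) was a rise of 0.41 without array 1 (adjusted p = 0.0255). Spns3, a transporter gene, was at -6.52, -3.73, -1.30 and -1.50 against -4.96 to -4.63, and its difference of 1.52 (adjusted p = 0.227) was 2.60 without array 1 (adjusted p = 0.00995). D630033O11Rik was at -4.37, -7.02, -1.81 and -1.86 against -4.39 to -4.12, so arrays 3 and 4 lay above vehicle and array 2 below it (0.51, adjusted p = 0.716). The plot of the 15 genes, with Ddx3y and Nnat among them, shows the divisions side by side.

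**Figure D4:**
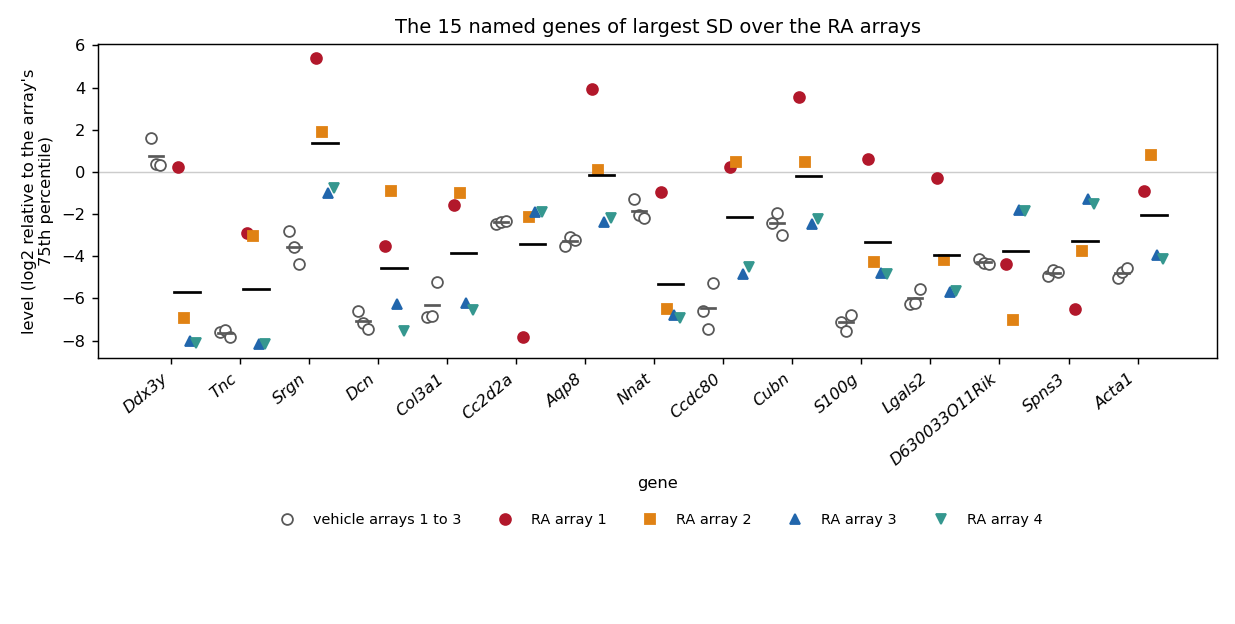
Level of the 15 named genes with the largest SD over the RA arrays (x axis, in falling order of SD), in log2 units relative to the 75th percentile of the array (y axis). Open circles are the 3 vehicle arrays, coloured symbols the 4 RA arrays, and short lines the group means. RA arrays 3 and 4 nearly coincide in most genes, while Cc2d2a is low on array 1 alone (-7.85) and S100g is high on it (0.59).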

How the data were processed

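Agilent Whole Mouse Genome 4x44K 1-colour (Cy3) arrays were read from the deposited scanner files, whose processed signal is an intensity. The authors extracted them with Agilent Feature Extraction 9.5, per the submitters' processing notes (9.5.3.1 per the file headers), and per the file headers probe positions refer to the build mm7. The series table deposited by the authors held the same intensity on all 45018 spots of each array and was not used further.

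Control spots were left out, spots marked as outliers were set to missing, and values are log2 of the deposited intensity minus the array's 75th percentile, so that log2 differences are relative to that scale. Spots of a probe were averaged. Kept were probes that every array of 1 or more of the 4 groups measured well above background (26375 of 41174 probes). RefSeq accessions named 17660 of them, the others kept the file's name, and the brightest probe stood for a gene (18281 genes, 13856 with a symbol; 29 values were missing on the 7 arrays). Differences were fitted with limma 3.58.1, run in R 4.3.3 with lmFit and then eBayes on all 4 array groups (two-sided, 12 residual degrees of freedom). P-values were adjusted after Benjamini and Hochberg, with a threshold of 0.05, and differences are given with their standard error (SE). On simulated arrays with independent normal noise and 200 changed genes, the fit recovered 73% of changes of 1 log2 unit and 95% of 2, with 11 false calls. Close pairs of arrays, differences between cells and the large share of changed genes were not simulated. These values therefore do not give the error rate of the fit on the real arrays. Where no array of a group measured a gene above background, a bound ("at least") is given in place of a fold, computed per array from the higher of the probe's signal and the dimmest signal that counted as well above background. Gene lists were counted, not tested.

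Named genes were the markers, the largest calls of each list, well-known members that did not pass, members whose RA arrays lay on both sides of vehicle, the 10 largest rises and falls, the 15 largest SDs and Sirt1; Adh5, Aldh1a2, Cyp26b1, Etv5, Evx1, Fbln1, Fzd5, Gata2, Junb, Krt18, Mirg, Myc, Nr6a1, Phlda2, Pknox1, Pou5f1, Rbp4, Rian, Rxrb, Sox2, Sox7, Stag3, Stra6, Uty, Zfy1, Zfy2 and Zscan10, and the genes of the motif search, were named after their values were seen. Members and lists were chosen with earlier results of these data known. Alternatives covered background correction, scaling, filter, probe choice, arrays in the fit, slide, replicate block, single arrays left out, RA array 1 alone and limma's trend option; averaging the close pairs of arrays was chosen after seeing the data. Replicate numbers did not pair the arrays: deviations of same-numbered arrays correlated at -0.028, -0.069 and -0.063. Some genes that the naming rule selects are not reported here.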

Additional observations from a re-analysis of the deposited data

Results flagged for a closer look

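In 23 of the 183 named genes, 1 of the 4 RA arrays lay far from the other three, so that the gap to the nearest of them, over the whole range, passed Dixon's 95% critical value. A chance rate of about 1 in 20 holds for 4 independent values. RA arrays 3 and 4 differed little from each other (SD 0.214 over genes), so that rate cannot be applied here. The number of flagged genes was therefore not set against chance. Several of these genes were also named because their arrays differed. Levels are in log2 units relative to the 75th percentile, each set against the nearest other RA array. On RA array 1 the genes that lay above the others were Apoe at 6.62 against 5.12, Ddx3y at 0.23 against -6.91, Eif2s3y at 1.98 against -2.51, Gata6 at 3.03 against 0.49, Hbb-y at -3.70 against -5.49 and Hk2 at 5.01 against 4.63. Also above them on that array were Nnat at -0.93 against -6.51, P4ha2 at 4.85 against 3.75, Pdgfra at 0.02 against -2.69, Rxra at 2.69 against 2.29, S100g at 0.59 against -4.29, T at -4.52 against -5.07, Uty at -5.08 against -7.67 and Zfp42 at 7.54 against 7.13. Below the others on RA array 1 were Cc2d2a at -7.85 against -2.12, Ezh2 at 2.24 against 2.64, Nrip1 at 0.18 against 0.67, Pax6 at -6.82 against -2.31, Smad6 at -0.40 against 0.39 and Wnt3 at -2.51 against -1.79. On RA array 2 the genes set apart were Gata3 at -0.00 against -1.78, Mycn at 2.75 against 1.68 and Nkx6-3 at -4.45 against -3.43.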

How the results depend on the processing

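Of the counts of called genes, 8561 became 4714 with normexp background correction and 1858 with close pairs averaged and only the sh-Control arrays in the fit, a setting chosen after seeing the data that leaves fewer samples. Calls of at least 1 log2 unit, 2882, became 1406 and 1685 in the same settings. The cause of the normexp change was not tested. Leaving out 1 array gave 7112 to 8689 and 2607 to 2941. The fit with the replicate number as a block gave 5795 and 2696, and replicate numbers did not pair the arrays. Cyp26a1 was above background on no vehicle array, so its differences here are of measured signals and are no bound. Single arrays left out moved Cyp26a1 from 6.60 to 7.40, Stra8 from 7.83 to 8.33 and Rarb from 4.48 to 4.91 log2 units. Some processing settings moved Cyp26a1 and Rarb further. Normexp background correction gave 4.03 for Cyp26a1, 7.80 for Stra8 and 2.64 for Rarb, beside 6.97, 8.07 and 4.69 in the main fit. The mean over the probes of a gene gave 3.13 for Rarb. Within slides 1 and 4, which hold 1 array of each group, Cyp26a1 was 8.23 and 5.30, Stra8 9.28 and 7.23, and Rarb 5.37 and 3.66. Without the filter on dim probes 32.1% of calls were rises. The median SD between pairs of RA arrays, 0.655, was 0.587 with normexp and 0.775 without the filter.

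Differences in log2 units that turned their sign were these, and the cause was not tested. With RA array 1 alone, they were Blvrb 0.20, D630033O11Rik -0.09, Eif2s3y 0.65, Hbb-y 0.93, Hoxa6 0.05, Nnat 0.91, Nodal -0.00, Spns3 -1.74, Zfp42 0.05, Zfy1 -0.07, the list median of naive pluripotency 0.05, the list median of Nodal and BMP -0.00 and the list median of epithelial and mesenchymal state 0.46. Within slide 4 (vehicle array 3, RA array 1), they were Blvrb 0.16, Eif2s3y 0.78, Hbb-y 0.24, Nnat 1.25, Nodal -0.03, Pou5f1 0.08, Rarg 0.11, Spns3 -1.78, T -0.04, Zfp42 0.08, the list median of retinoid receptors and coregulators 0.05, the list median of Nodal and BMP -0.16, the list median of epithelial and mesenchymal state 0.64 and the list median of Y-linked 0.56. Within slide 1 (vehicle array 1, RA array 3), they were Cc2d2a 0.57, Cdh1 0.07, Cubn -0.07, Gata4 -0.02, Hoxa6 0.09, Klf4 -0.19, Lama1 -0.14, Pax6 2.00, Tnc -0.56, Xist -0.50, Zfy1 -0.41 and the list median of imprinted -0.41. With quantile normalization, they were Cdh1 0.03, Prrx1 0.07 and Zfp42 0.08. With the replicate block, it was D630033O11Rik -0.13. With close pairs of arrays averaged, they were D630033O11Rik -0.17, Hoxa6 0.13 and Klf4 -0.00. With close pairs averaged, and only the sh-Control arrays fitted, they were D630033O11Rik -0.17, Hoxa6 0.13 and Klf4 -0.00. With normexp background correction, they were Hbb-y 0.04, Hoxa3 0.04, Hoxa6 0.11, Klf4 -0.08, Pax6 0.24, Prrx1 0.11 and the list median of neuroectoderm 0.02. With the mean over probes, they were Hoxa3 1.56, Pax6 0.21 and the list median of X inactivation 0.15. With scaling to the array median, they were Klf4 -0.15 and Zfy1 -0.02. Over the single arrays left out, those that turned ranged for Cc2d2a from -1.58 to 0.41, D630033O11Rik from -0.14 to 1.60, Gata4 from -0.22 to 0.69, Hoxa3 from -0.11 to 0.08, Hoxa6 from -0.45 to 0.12, Klf4 from -0.23 to 0.19, Pax6 from -0.43 to 1.12, Prrx1 from -0.60 to 0.21 and Zfy1 from -0.18 to 0.35. Of 31 lists, the rises fell by over 1.5 times in 21 with close pairs averaged in sh-Control arrays only, 11 with normexp and 8 with the 7 arrays alone, and the falls in 21, 5 and 6. Of the 183 named genes, 67 lost their call with close pairs averaged in sh-Control arrays only and 23 with normexp. With the 7 arrays alone 12 did so, with close pairs averaged in the fit of all groups 10, and with the replicate block 9. RA array 1 alone is left out of this ranking, so it does not show how far the calls rest on RA arrays 2 to 4. Probes near background have values set partly by the scanner's background correction.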
